A study of Mus musculus with 6 samples.

Results

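The Krüppel-like factor genes are described here in DNA methylation peak lists of mouse mesangial cells, with 10 member genes, Klf2, Klf3, Klf4, Klf5, Klf6, Klf7, Klf9, Klf10, Klf12 and Klf13, of 22380 protein-coding genes in the annotation. A peak was counted for a gene when its summit lay in the gene (GENCODE vM1, build mm9) or within 5000 bp on either side, and peaks from different samples that shared at least 1 bp were merged into a region. The members held 285 of the 579787 peaks of the 6 samples and 74 of the 170444 regions. The highest summit of each member region lay outside every other protein-coding gene. The members were listed by name.

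The samples were DNA from mouse primary mesangial cells, the contractile support cells of the kidney glomerulus, and the assay was MeDIP-seq, in which an antibody pulls down DNA fragments that carry methylated cytosine before sequencing. The 3 control samples and the 3 samples treated with TGF-β1 (10 ng/ml for 72 hours) were all grown in 25.5 mM glucose with 20% serum and used at passages 3 to 6. The labels conflict on the controls, since their culture text names TGF-β1 for all 6 samples while the treatment field calls 3 of them control. Group membership rests on the treatment field, and what the control cells received in place of TGF-β1 is not given in the sources used here. Control replicates 1, 2 and 3 had 10319496, 9407103 and 11494356 reads, from which 81473, 90337 and 100449 peaks were called. TGF-β1 replicates 1, 2 and 3 had 12748318, 12634300 and 13291419 reads, which gave 101629, 100379 and 105520 peaks. All treated samples had more reads than any control, and for numbers of peaks the effects of depth and of TGF-β1 cannot be told apart. No label ties a replicate to a separate culture or animal, and p-values measure only the spread between these samples. The peak lists hold no expression values, so the cell type was not checked against marker genes.

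Krüppel-like factors are transcription factors with a conserved block of zinc fingers at the C-terminal end, which binds GC-rich and CACC-type motifs, and with N-terminal parts that differ between members. KLF2, KLF4, KLF5, KLF6 and KLF7 mostly activate transcription, KLF3 and KLF12 repress it through the co-repressor CtBP, and KLF9, KLF10 and KLF13 repress it through Sin3A. Several members respond to growth factors in kidney and vascular cells, and KLF10 was first described as a gene induced early by TGF-β. In mammalian DNA most methylated cytosine lies in CG dinucleotides, while CpG islands, the CG-rich stretches at many gene starts, usually stay free of it.

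Each of the 10 members had at least 1 peak, as did 17962 of all protein-coding genes (80.3%). Their peaks lay mainly in introns, with 187 of 285 (65.6%) there, 48 in the flanks, 24 in coding exons, 18 in untranslated exons and 8 in promoters (2000 bp before to 500 bp after a transcript start). Klf12, the longest member at 279 kb, held 127 peaks, followed by Klf7 (92.8 kb) with 40, and Klf6 (8.91 kb) held the fewest with 5. Per length the order was different. Klf4 had 17.4 and Klf2 17.2 peaks per 100 kb of gene and flanks per sample, Klf3 had 11.3, Klf9 8.41, Klf12 7.32, Klf5 6.74, Klf7 6.48, Klf13 6.39, Klf10 6.06 and Klf6 4.41. The median of the members was 7.03 against 5.18 for all protein-coding genes, and the short genes at the top of the order owe most of their window to the flanks.

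The members together had 40, 45 and 47 peaks in the control and 51, 47 and 55 in the TGF-β1 samples. Their mean was 44.0 ± 3.61 (SD, n = 3) in control and 51.0 ± 4.0 (SD, n = 3) after TGF-β1, 15.9% more, and the groups met at 47 peaks. Per 100000 peaks of the sample, the members had 48.6 ± 1.58 in control and 49.7 ± 2.68 after TGF-β1 (SD, n = 3 each), a difference smaller than either SD. Scaled by reads to the mean depth, the direction turned, with a family difference of −3.46 peaks. Of the 10 members, 7 had a higher mean number of unscaled peaks after TGF-β1, 1 (Klf6) a lower and 2 (Klf5 and Klf13) an equal one, where 57.0% of all genes with a peak had a higher and 22.2% a lower mean. Scaled by reads, the difference was negative for Klf2, Klf5, Klf6, Klf12 and Klf13 and positive for the other members (Klf9 at 2.53e-05). Scaled by the number of peaks, it was negative for Klf5, Klf6, Klf12 and Klf13 and positive for the others. None of the members had more peaks in every TGF-β1 sample than in every control sample, a pattern seen in 3.94% of genes with a peak, and none had fewer, seen in 0.345%. After Benjamini-Hochberg adjustment over all genes with a peak, the exact permutation test gave an adjusted p of 1 for each member and for every other gene, where the smallest raw p that 3 samples against 3 allow is 0.1.

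**Figure D1:**
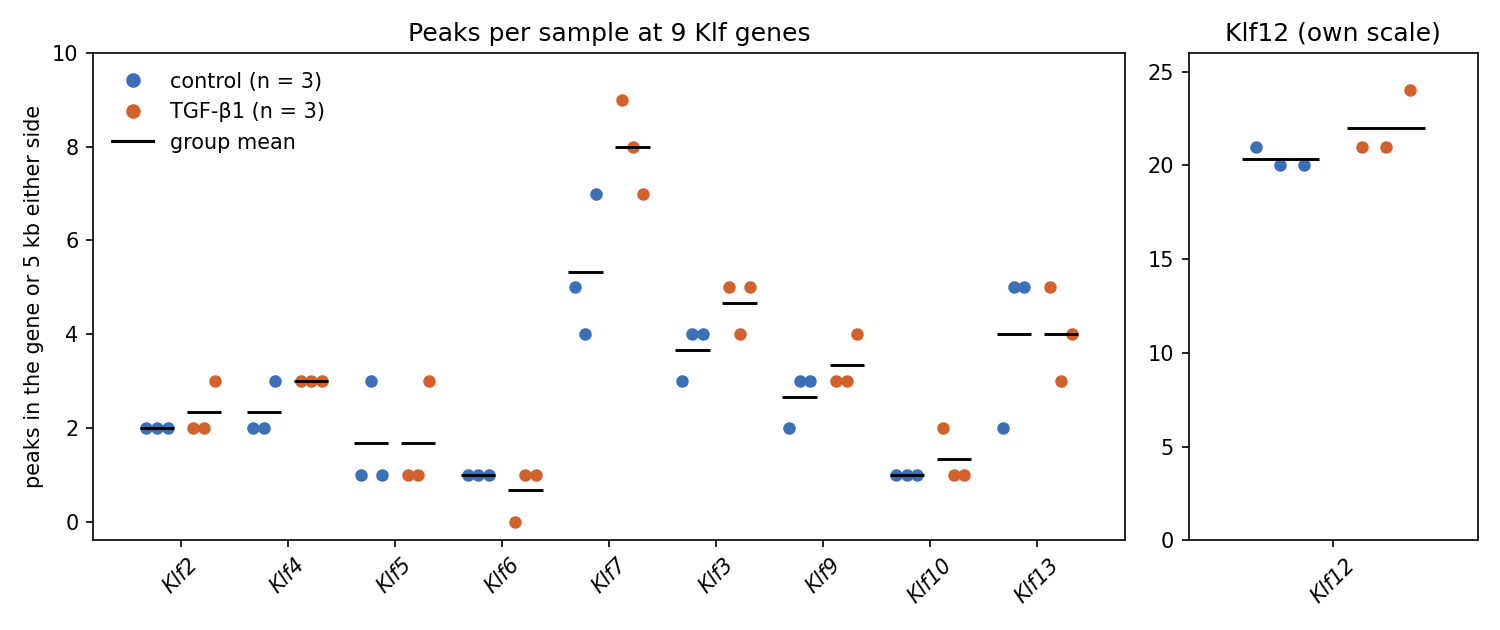
Number of peaks in each Klf gene or within 5 kb of it, 1 point per sample, blue for control and orange for TGF-β1 (n = 3 each), with the group means as black lines and Klf12 on a scale of its own. The samples of the groups overlap at every gene, also at Klf7, where control replicate 3 and TGF-β1 replicate 3 both had 7 peaks.

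Klf7, a factor known for roles in neuronal development and in adipose cells, showed the largest difference in unscaled peak number among the members with all 6 samples. It had 5, 4 and 7 peaks in the control and 9, 8 and 7 in the TGF-β1 samples. The mean was 5.33 ± 1.53 (SD, n = 3) in control and 8.0 ± 1.0 (SD, n = 3) after TGF-β1. The means were 2.67 peaks apart, more than the SD of either group, which did not pass the exact two-sided permutation test (p = 0.2). Relative to the total, Klf7 had 5.84 ± 1.3 peaks per 100000 in control and 7.82 ± 1.12 after TGF-β1 (SD, n = 3 each, exact permutation p = 0.2). Scaled by reads to the mean depth, the Klf7 difference was 1.35 peaks and that of Klf12 −3.05, and without TGF-β1 replicate 1 both genes differed by 2.17 unscaled peaks. A difference of 2.67 peaks or more was seen in 608 genes, 3.38% of those with a peak. Under a stricter threshold (−log10 q of 5 or more), control replicate 3 held 6 Klf7 peaks in place of 7 and the groups no longer overlapped (exact permutation p = 0.1), where 3.78% of genes had more peaks in every TGF-β1 sample. Leaving out control replicate 3 gave a difference of 3.50 peaks (exact permutation p = 0.1), and leaving out any other sample gave 2 to 3.17 peaks (exact permutation p of 0.2 or 0.3).

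Set against its own family, Klf7 took 12.1% ± 3.02 of the members' peaks in control and 15.8% ± 2.68 after TGF-β1 (SD, n = 3 each), a difference of 3.70 percentage points that gave an exact permutation p of 0.2, in a design whose smallest p is 0.1. The 9 other members together had 35, 41 and 40 peaks in the control and 42, 39 and 48 in the TGF-β1 samples, with means of 38.7 ± 3.21 and 43.0 ± 4.58 (SD, n = 3 each), 11.2% more after TGF-β1. Per 100000 peaks of the sample the order of their means was the opposite, with 42.7 ± 2.79 in control and 41.9 ± 3.35 after TGF-β1 (SD, n = 3 each). Klf12, the other long gene, took 46.5% ± 5.28 of the members' peaks in control and 43.2% ± 1.80 after TGF-β1 (SD, n = 3 each, exact permutation p = 0.5).

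Of the 40 Klf7 peaks, 37 lay in introns (92.5%) and 3 in coding exons, with none in the promoter, the untranslated exons or the flanks. The introns held 5, 4 and 7 peaks in the control and 7 in each TGF-β1 sample, so that control replicate 3 equalled the treated samples. Coding exons of Klf7 held no peak in any control sample, while TGF-β1 replicates 1, 2 and 3 held 2, 1 and 0. Coding exons of the 9 other members held 2, 4 and 4 peaks in the control and 4, 4 and 3 in the TGF-β1 samples, and those groups overlapped.

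The Klf7 peaks fell into 11 regions on the reverse strand gene at chr1:64076021-64168856, numbered here by their distance downstream of the start of the reference transcript. The region nearest the start, in intron 1 at 11.3 kb (chr1:64156567-64157002), was the only member region called in all 3 TGF-β1 samples and in no control sample, a pattern seen in 0.948% of all regions. Its summit pileup, counted in extended reads at the highest point of the peak, was 13, 18 and 27 in TGF-β1 replicates 1, 2 and 3, or 1.02, 1.42 and 2.03 per 1000000 reads. Fold enrichment over the local background was 4.75, 6.52 and 8.41 in the same samples. The lowest pileup called anywhere in replicate 1 was 9. At a fold enrichment of at least 5 that call dropped out. No member region was then called in all 3 TGF-β1 samples and no control sample, a pattern seen in 0.794% of all regions at that setting. The 300 bp around its summit (chr1:64156606-64156905, mm9, reverse strand) are shown because this region separates the groups, with CG dinucleotides, the usual sites of methylation, in capitals.
Klf7 intron 1: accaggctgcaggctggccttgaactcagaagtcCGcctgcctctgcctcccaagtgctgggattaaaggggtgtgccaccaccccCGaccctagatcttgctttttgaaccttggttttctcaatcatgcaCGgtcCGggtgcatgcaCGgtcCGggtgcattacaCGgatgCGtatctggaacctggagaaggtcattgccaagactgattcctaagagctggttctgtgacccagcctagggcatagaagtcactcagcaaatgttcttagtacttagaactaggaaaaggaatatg

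This stretch holds 8 CG dinucleotides in 300 bp, and a run of 20 bases, catgcaCGgtcCGggtgcat, occurs in it 2 times in overlap. The whole region had 1.83 CG per 100 bp against a median of 2.37 for all regions that lie on the reference sequence, and it lay outside any CpG island.

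Further regions of Klf7 were called more often in TGF-β1 samples without separating the groups. The region in coding exon 3 (chr1:64088774-64089106) was called in TGF-β1 replicates 1 and 2 with pileups of 30 and 24, and the region in intron 1 at 40.5 kb (chr1:64127408-64127783) in the same replicates with pileups of 17 and 15. The region in coding exon 2 (chr1:64125628-64125931) was called only in TGF-β1 replicate 1, with a pileup of 18. TGF-β1 replicate 3, the deepest sample of all, held none of these peaks. In the opposite direction, the region in intron 2 at 75.7 kb was called in all 3 control samples with pileups of 21, 19 and 12, and in TGF-β1 replicate 3 with 19. Regions called in at least 2 more TGF-β1 than control samples thus numbered 3 of 11 at Klf7, 3 of 63 at the 9 other members (1 at Klf3, 2 at Klf12) and 7.85% of all regions. Regions with the opposite excess numbered 1 of 11 at Klf7 and 1 of 63 at the others (at Klf12), against 3.12% of all regions.

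**Figure D2:**
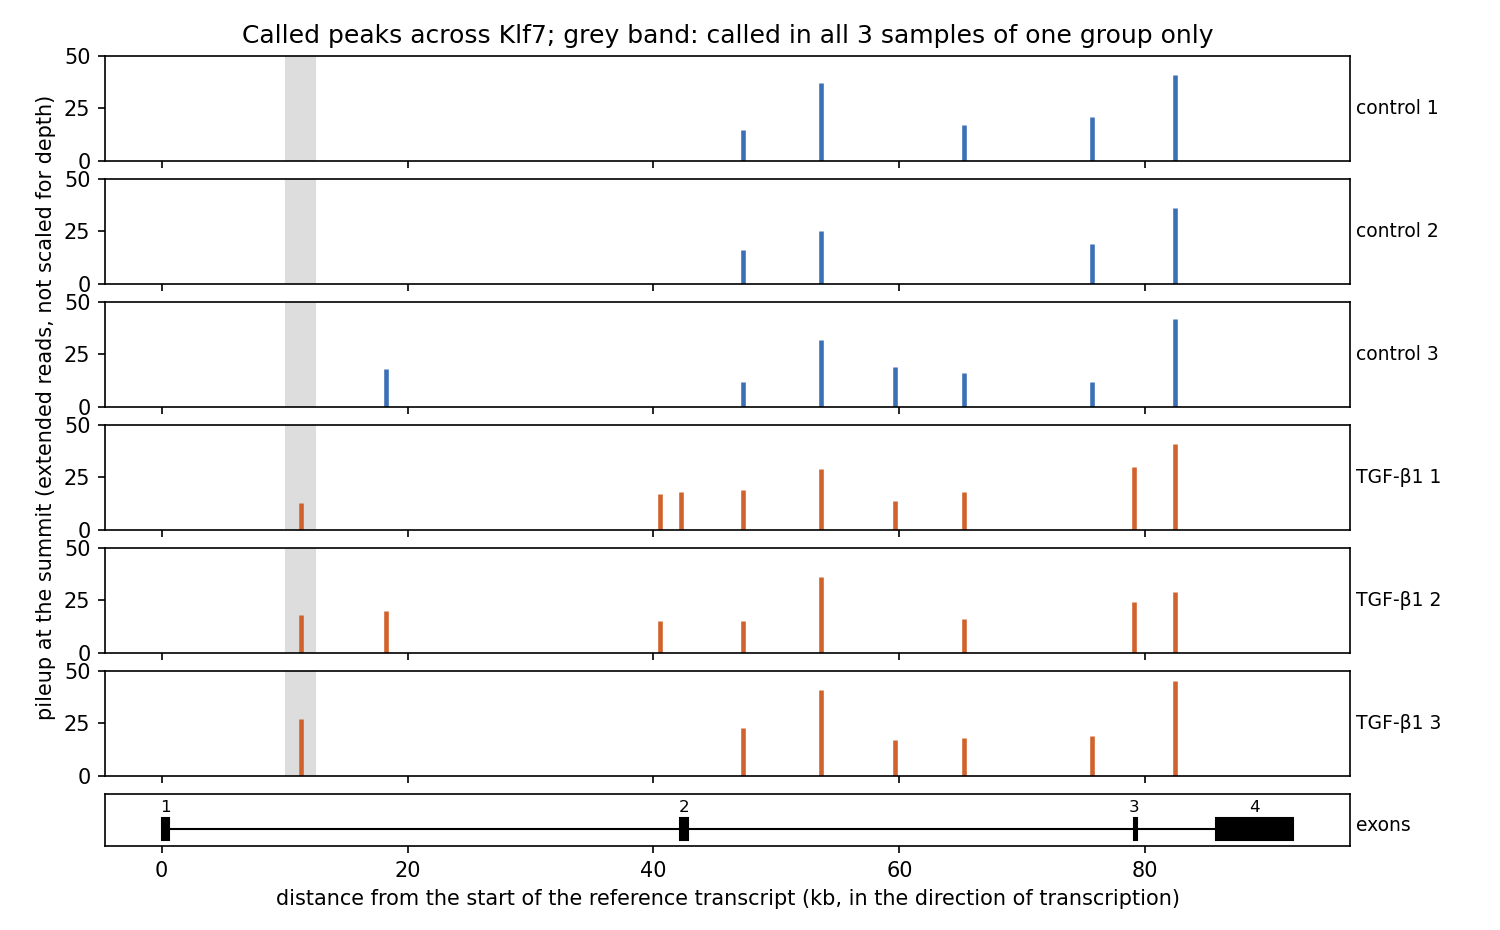
Called peaks across Klf7 in each of the 6 samples, with the distance from the start of the reference transcript in kb on the horizontal axis, the pileup at the summit in extended reads on the vertical axis (not scaled for depth) and the exons as black boxes. The grey band marks the intron 1 region called in all 3 TGF-β1 samples and no control sample, and the lines at 82.4 kb in intron 3, with pileups of 29 to 45, stand in all 6 samples.

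The remaining Klf7 regions were shared between the groups, and 3 were called in all 6 samples. The highest of them, in intron 3 at 82.4 kb, had pileups of 41, 36 and 42 in the control and 41, 29 and 45 in the TGF-β1 samples. The region in intron 2 at 53.7 kb had 37, 25 and 32 in the control and 29, 36 and 41 in the TGF-β1 samples. The region in intron 2 at 47.3 kb had 15, 16 and 12 against 19, 15 and 23. The groups overlapped at each of these regions in raw pileup. Per 1000000 reads the intron 3 region had 3.97, 3.83 and 3.65 in the control and 3.22, 2.30 and 3.39 in the TGF-β1 samples, where the groups did not overlap, as in 10.4% of all regions called in the 6 samples with the same direction. Its fold enrichments of 7.58, 8.08 and 7.34 against 6.56, 5.32 and 6.21 did not overlap either, as in 5.26% of those regions with the same direction. With limma on log2 pileup, after subtraction of the sample median, the log2 fold changes of these regions after TGF-β1 were −0.29 (SE 0.18), −0.04 (SE 0.20) and 0.17 (SE 0.22), each with an adjusted p of 0.999 over all 41744 regions called in the 6 samples. The unadjusted p of the intron 3 region was 0.12 in that fit, 0.051 with pileup per 1000000 reads and 0.0483 with fold enrichment in place of pileup (limma). Without TGF-β1 replicate 2 its log2 fold change was −0.14 (unadjusted p = 0.485 by limma). The other 3 regions were called in 5, 3 and 2 samples at 65.3, 59.7 and 18.2 kb, with pileups between 14 and 20. The 300 bp around the highest Klf7 summit (chr1:64085522-64085821, mm9, reverse strand) are given as the counterpart that was called in both groups, again with CG in capitals.
Klf7 intron 3: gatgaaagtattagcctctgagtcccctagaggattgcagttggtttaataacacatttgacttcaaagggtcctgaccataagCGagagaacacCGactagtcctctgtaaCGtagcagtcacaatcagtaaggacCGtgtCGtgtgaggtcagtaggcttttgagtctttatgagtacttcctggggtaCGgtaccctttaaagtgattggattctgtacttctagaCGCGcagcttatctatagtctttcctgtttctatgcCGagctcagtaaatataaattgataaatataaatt

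This stretch holds 9 CG dinucleotides, 1 more than the stretch in intron 1, and its pileups of 29 to 45 in the 6 samples were above the 13 to 27 of the intron 1 region after TGF-β1.

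Among the other activators, Klf2, which endothelial cells express under blood flow, had 2 peaks in every control sample and 2, 2 and 3 after TGF-β1. Its strongest region lay 1952 bp before the start, in the promoter window (chr8:74840768-74841193), and was called in every sample but control replicate 1, with pileups of 27 and 27 in control replicates 2 and 3 and 37, 36 and 42 in the TGF-β1 samples. The raw pileups did not overlap between the groups, with only 2 control values. Of the regions called in all 6 samples, 14.6% were higher in every TGF-β1 sample in raw pileup. Per 1000000 reads the Klf2 region had 2.87 and 2.35 in control replicates 2 and 3 and 2.90, 2.85 and 3.16 after TGF-β1. On that scale control replicate 2 lay within the treated range.

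Klf4, one of the factors used to reprogramme cells to pluripotency, had 2, 2 and 3 peaks in the control samples and 3 in each TGF-β1 sample (difference 0.667, exact permutation p = 0.4). Its only region within the gene lay in coding exon 5 (chr4:55540901-55541273, with the summit of TGF-β1 replicate 1 in the untranslated part), with pileups of 15 and 18 in control replicates 2 and 3, no call in control replicate 1, and 24, 27 and 16 in the TGF-β1 samples. Its highest region lay 3443 bp before the start, with pileups of 21 and 25 in control replicates 1 and 3, no call in control replicate 2, and 28, 21 and 29 after TGF-β1. Both regions overlapped between the groups. The region called in all 6 samples, 4839 bp before the start, had pileups of 17, 17 and 25 in the control and 16, 17 and 19 after TGF-β1 (log2 fold change −0.38, SE 0.21, unadjusted p = 0.0781 by limma). Per 1000000 reads it had 1.65, 1.81 and 2.17 against 1.26, 1.35 and 1.43, which did not overlap (unadjusted p = 0.0307, adjusted p = 0.786 by limma). On that scale 10.4% of the regions called in all 6 samples were lower in every TGF-β1 sample, and 5.72% were lower at an unadjusted p below 0.05 by limma. In fold enrichment the groups of the Klf4 region overlapped (unadjusted p = 0.0465 by limma).

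Klf5, which promotes growth of epithelial and smooth muscle cells, had 1, 3 and 1 peaks in the control and 1, 1 and 3 in the TGF-β1 samples, with equal means. Its coding exon 2 held the highest mean pileup of all member regions (chr14:99700631-99701576), with 37, 35 and 45 in the control and 43, 56 and 36 in the TGF-β1 samples (log2 fold change −0.03, SE 0.19, adjusted p = 0.999 by limma). The other Klf5 regions were called in 1 sample each. The 300 bp around the exon 2 summit (chr14:99701137-99701436, mm9, forward strand) show a coding stretch that was called in every sample, with CG in capitals.
Klf5 exon 2: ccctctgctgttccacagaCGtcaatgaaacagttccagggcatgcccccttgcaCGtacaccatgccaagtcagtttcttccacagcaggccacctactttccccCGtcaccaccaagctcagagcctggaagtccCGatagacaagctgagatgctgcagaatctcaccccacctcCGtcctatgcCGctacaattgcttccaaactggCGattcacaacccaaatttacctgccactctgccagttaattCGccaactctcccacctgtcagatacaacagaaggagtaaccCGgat

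This exonic stretch also holds 9 CG dinucleotides, at 53.3% GC against 41.7% in the Klf7 intron 3 stretch with the same number. Klf6, an immediate-early gene of injured tissue, was the sparsest member. It had 1 region, 3851 bp before the start, with pileups of 13, 13 and 20 in the control samples, no call in TGF-β1 replicate 1, and 13 and 18 in TGF-β1 replicates 2 and 3. The 5 activators together had 11, 12 and 14 peaks in the control and 15, 15 and 17 in the TGF-β1 samples, and Klf7 held 40 of those 84 peaks. Per 100000 peaks of the sample they had 13.5, 13.3 and 13.9 in the control and 14.8, 14.9 and 16.1 after TGF-β1 (not tested). Without Klf7 they had 6, 8 and 7 peaks against 6, 7 and 10.

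The CtBP-binding repressors held most of the members' peaks, with 24 in each control sample and 26, 25 and 29 in the TGF-β1 samples. These groups did not overlap either. Per 100000 peaks of the sample they had 29.5, 26.6 and 23.9 against 25.6, 24.9 and 27.5, which overlapped. Klf3, which represses genes in red cell precursors and adipose tissue, had 3, 4 and 4 peaks in the control and 5, 4 and 5 in the TGF-β1 samples (difference of 1 peak, exact permutation p = 0.3). All but 1 of its 25 peaks lay in introns. The highest region, in intron 2 at 16.5 kb, had pileups of 32, 32 and 34 in the control and 37, 28 and 47 in the TGF-β1 samples (log2 fold change −0.06, SE 0.19, adjusted p = 0.999 by limma). A region in intron 1 (chr5:65201130-65201567) was called in TGF-β1 replicates 1 and 3 only, with pileups of 11 and 18, and the coding exon 6 region was called in TGF-β1 replicate 1 only, with 22.

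Klf12, known as a repressor of the AP-2 alpha gene, had 21, 20 and 20 peaks in the control and 21, 21 and 24 in the TGF-β1 samples. The mean was 20.3 ± 0.577 in control and 22 ± 1.73 after TGF-β1 (SD, n = 3 each, difference 1.67, exact permutation p = 0.3). With each sample left out, the difference ran from 0.667, without TGF-β1 replicate 3, to 2.17. Per 100000 peaks the order of the means was the opposite, with 22.6 ± 2.96 in control and 21.4 ± 1.13 after TGF-β1 (SD, n = 3 each, exact permutation p = 0.7). Of its 127 peaks 108 lay in introns (85.0%), 11 in the untranslated part of exon 7, 5 in coding exon 3 and 3 in the promoter. They fell into 31 regions, 10 of them called in all 6 samples.

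The only member region called in all 3 control samples and in no TGF-β1 sample lay in intron 4 of Klf12 (chr14:100350042-100350388), a pattern seen in 0.233% of all regions. Its pileups were 13, 13 and 17 in control replicates 1, 2 and 3, or 1.26, 1.38 and 1.48 per 1000000 reads, with fold enrichments of 5.48, 5.79 and 6.53. The lowest pileups called anywhere in TGF-β1 replicates 1, 2 and 3 were 9, 9 and 10. The stretch around its summit (chr14:100350042-100350339, mm9, reverse strand) is shown as the counterpart of the Klf7 intron 1 region in the opposite direction, with CG in capitals.
Klf12 intron 4: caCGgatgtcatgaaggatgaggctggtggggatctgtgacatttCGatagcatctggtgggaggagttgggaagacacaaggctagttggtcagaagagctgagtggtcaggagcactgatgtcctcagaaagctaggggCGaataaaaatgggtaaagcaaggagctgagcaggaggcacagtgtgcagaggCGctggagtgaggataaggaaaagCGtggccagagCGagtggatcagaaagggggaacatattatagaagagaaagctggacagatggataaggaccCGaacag

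It holds 7 CG dinucleotides in 298 bp, close to the 8 in 300 bp of the Klf7 stretch, and lay outside any CpG island as well. Klf12 regions in intron 6 at 269.8 kb and in intron 1 at 14.9 kb were each called in 2 TGF-β1 samples and in none of the controls. Their pileups were 20 and 23 in replicates 1 and 3 and 21 and 19 in replicates 2 and 3. The highest Klf12 region, in intron 4 at 162.4 kb, had pileups of 31, 22 and 29 in the control and 42, 34 and 49 in the TGF-β1 samples, which did not overlap, as in 14.6% of the regions called in all 6 samples. Its log2 fold change was 0.39 (SE 0.19, unadjusted p = 0.0563, adjusted p = 0.999 by limma), and per 1000000 reads the groups overlapped, with 3.00, 2.34 and 2.52 against 3.29, 2.69 and 3.69. Its fold enrichments of 12.01, 9.51 and 10.9 against 13.1, 12.02 and 15.6 did not overlap, as in 4.3% of those regions. The unadjusted p was 0.0322 with fold enrichment, 0.0127 without control replicate 1 and 0.0341 without TGF-β1 replicate 2, with adjusted p-values of 0.776 or more by limma. The coding exon 3 region was called in every sample but control replicate 2. Its pileups were 19 and 16 in control replicates 1 and 3 and 26, 20 and 26 in the TGF-β1 samples. Per 1000000 reads they were 1.84 and 1.39 against 2.04, 1.58 and 1.96, and there the groups overlapped.

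**Figure D3:**
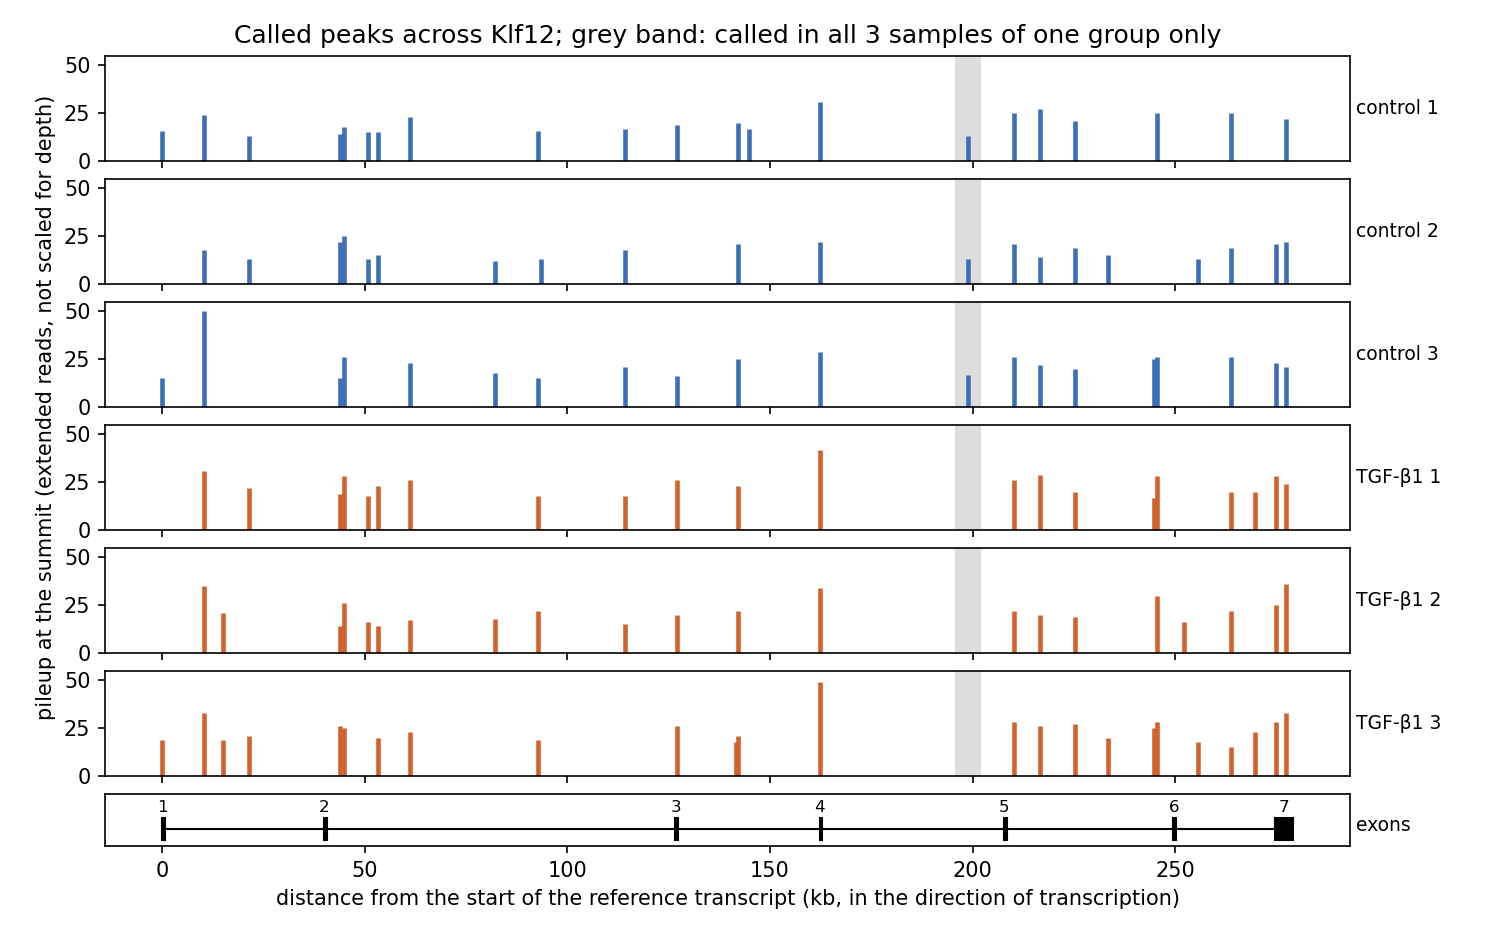
Called peaks across Klf12 in each of the 6 samples, with the distance from the start of the reference transcript in kb on the horizontal axis, the pileup at the summit in extended reads on the vertical axis (not scaled for depth) and the exons as black boxes. The grey band marks the intron 4 region with pileups of 13, 13 and 17 in the control samples and no call after TGF-β1, while most other lines recur in both groups.

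The Sin3A-binding repressors had 5, 9 and 9 peaks in the control and 10, 7 and 9 in the TGF-β1 samples, and the groups overlapped. Klf9, a gene induced by glucocorticoid and thyroid hormone, had 2, 3 and 3 peaks in the control and 3, 3 and 4 in the TGF-β1 samples. Its highest region, in the untranslated part of exon 2, had pileups of 37, 34 and 32 in the control and 35, 41 and 53 in the TGF-β1 samples (log2 fold change 0.08, SE 0.19, adjusted p = 0.999 by limma). The coding part of the same exon held a region called in control replicates 2 and 3 with 26 and 23, and in TGF-β1 replicates 1 and 2 with 28 and 24.

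Klf10, the TGF-β-inducible member, had 1 peak in every sample but TGF-β1 replicate 1, which had 2. The shared peak lay downstream of the gene, 11.6 kb from its start, with pileups of 21, 20 and 21 in the control and 22, 19 and 28 in the TGF-β1 samples (log2 fold change −0.09, SE 0.21, adjusted p = 0.999 by limma). No sample had a peak inside Klf10 or in its promoter. Klf13, a regulator of chemokine expression in T lymphocytes, had 2, 5 and 5 peaks in the control and 5, 3 and 4 in the TGF-β1 samples, 16 of 24 in introns and the rest in the flanks. Its highest region, in intron 1 at 25.3 kb, was low in every sample, with 15, 18 and 18 against 15, 16 and 17. Per 1000000 reads it had 1.45, 1.91 and 1.57 in the control and 1.18, 1.27 and 1.28 after TGF-β1, which did not overlap. Fold enrichments of 6.26, 7.86 and 6.89 against 5.42, 5.84 and 5.87 did not overlap either. Of all regions called in the 6 samples, 10.4% and 5.26% were lower in every TGF-β1 sample on these scales. The log2 fold change was −0.31 (SE 0.21, unadjusted p = 0.145, adjusted p = 0.999 by limma).

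**Figure D4:**
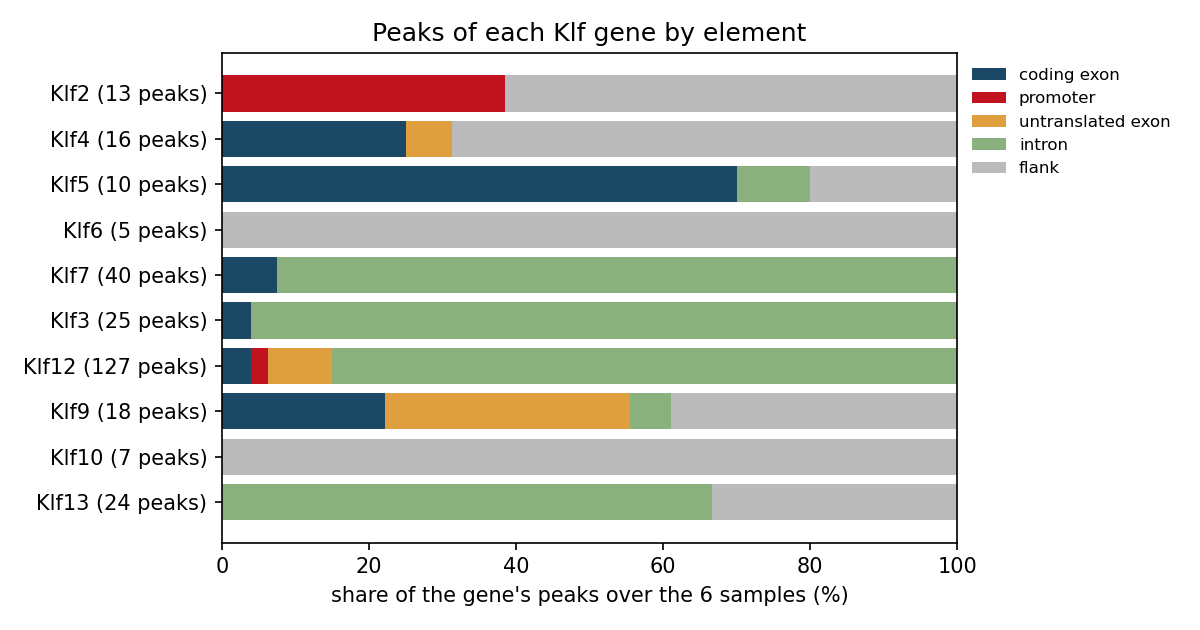
Share of each gene's peaks over the 6 samples (%, horizontal axis) that lay in coding exons, the promoter, untranslated exons, introns and the flanks of 5 kb, with the number of peaks beside each gene name. Klf7, Klf3 and Klf12 were made up mainly of intron peaks, while all peaks of Klf6 and Klf10 lay in the flanks.

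In the promoter window, 2 of 10 members (Klf2 and Klf12) had a peak in any sample, against 25.8% of all protein-coding genes, and within 500 bp of a start only Klf12 did, against 11.9%. By sequence, 9 of the 10 members had a CpG island within 500 bp of the start of the reference transcript, Klf12 being the exception. Islands were made of 200 bp windows with at least 50% GC and an observed over expected CG of at least 0.6. From 250 bp before to 50 bp after the start, the members had 6 to 40 CG dinucleotides with a median of 28.5, and all protein-coding genes a median of 11. Klf4 was the richest with 40, followed by Klf3 with 37, Klf2 with 33 and Klf13 with 32. Klf7 had 24, and an island of 1359 bp within 500 bp of its start held no peak summit in any sample. The GC box GGGCGG, a binding motif of the Sp and Krüppel-like family, was present on either strand in 7 of the 10 windows (not in those of Klf5, Klf12 and Klf9) and in 43.4% of the windows of all genes.

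The Klf12 promoter region, centred 141 bp before the start in this annotation (chr14:100548923-100549331), was called in control replicates 1 and 3 with pileups of 16 and 15 and in TGF-β1 replicate 3 with 19. It is the only member region within 500 bp of a start, and its bases before the start (chr14:100549016-100549305, mm9, reverse strand) are given with CG in capitals.
Klf12 promoter: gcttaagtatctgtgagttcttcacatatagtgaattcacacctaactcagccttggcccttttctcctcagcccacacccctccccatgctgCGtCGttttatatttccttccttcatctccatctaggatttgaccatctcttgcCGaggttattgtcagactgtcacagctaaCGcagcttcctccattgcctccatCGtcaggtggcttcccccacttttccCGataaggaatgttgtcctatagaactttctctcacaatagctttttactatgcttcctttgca

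With 6 CG dinucleotides in 290 bp at 46.2% GC, this promoter lies at the low end of the family. Across all windows of the members, 65 islands covered 37.1 kb (6.01% of the windows), and 16 of the 74 regions had their summit in one, including the exon 3 region of Klf7 and all 3 regions of Klf4. Member regions had a median of 2.19 CG per 100 bp and Klf7 regions 1.86, against 2.37 for all regions that lie on the reference sequence.

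In peak height, the 22 member regions called in all 6 samples (29.7% of 74, against 24.5% of all regions) gave groups that overlapped. Their median pileup was 24.5, 21.5 and 26 in the control and 26, 24 and 28 in the TGF-β1 samples. Per 1000000 reads it was 2.31 ± 0.0591 in control and 2.02 ± 0.106 after TGF-β1 (SD, n = 3 each), and every TGF-β1 sample (1.90 to 2.11) was below every control sample (2.26 to 2.37). The median over all 41744 regions was also lower after TGF-β1 on this scale, with 2.34 ± 0.108 in control and 2.2 ± 0.06 after TGF-β1 (SD, n = 3 each), but there the groups overlapped. Per 1000000 reads, 6 of the 22 member regions were lower in every TGF-β1 sample and none higher, against 10.4% lower and 1.97% higher among all regions. In fold enrichment 5 were lower and 1 higher, against 5.26% and 4.3%, and in raw pileup none was lower and 2 were higher, against 0.309% and 14.6%. For Klf7 alone the 3 regions had a median of 3.01 ± 0.503 in control and 2.55 ± 0.462 after TGF-β1 per 1000000 reads (SD, n = 3 each), and for the 9 other members 2.27 ± 0.0477 and 1.99 ± 0.150.

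By limma, none of the 22 member regions passed an adjusted p of 0.05 over all 41744 regions, the smallest among them being 0.999, and none of all regions passed, the smallest adjusted p being 0.677 with 1744 regions at an unadjusted p below 0.05. At that unadjusted level no member region was higher after TGF-β1, against 1.96% of all regions, and 1 was lower, against 2.22%. This was the region in intron 6 of Klf12 at 263.7 kb (chr14:100285093-100285534), with pileups of 25, 19 and 26 in the control and 20, 22 and 15 in the TGF-β1 samples and a log2 fold change of −0.52 (SE 0.22, unadjusted p = 0.0263, adjusted p = 0.999 by limma). Its groups overlapped in raw pileup. Per 1000000 reads they did not, with 2.42, 2.02 and 2.26 in the control and 1.57, 1.74 and 1.13 in the TGF-β1 samples (unadjusted p = 0.00927 by limma), nor in fold enrichment, with 10.2, 8.27 and 9.79 against 7.12, 7.90 and 5.21 (unadjusted p = 0.012 by limma). Of all regions, 10.4% and 5.26% were lower in every TGF-β1 sample on these 2 scales. At an unadjusted p below 0.05 by limma, 5.72% and 2.38% were lower. The smallest adjusted p of a member region was 0.786 on the first of these scales and 1 on the second (limma). In the centred fit, without control replicate 1, control replicate 3 or TGF-β1 replicate 3 its unadjusted p was 0.0856, 0.0525 or 0.196 by limma. Log2 fold changes of the member regions ran from −0.52 to 0.39 with a median of −0.04, 8 of 22 above 0 and 14 below, where the median over all regions was −0.0047 and 49.2% of them were above 0.

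**Figure D5:**
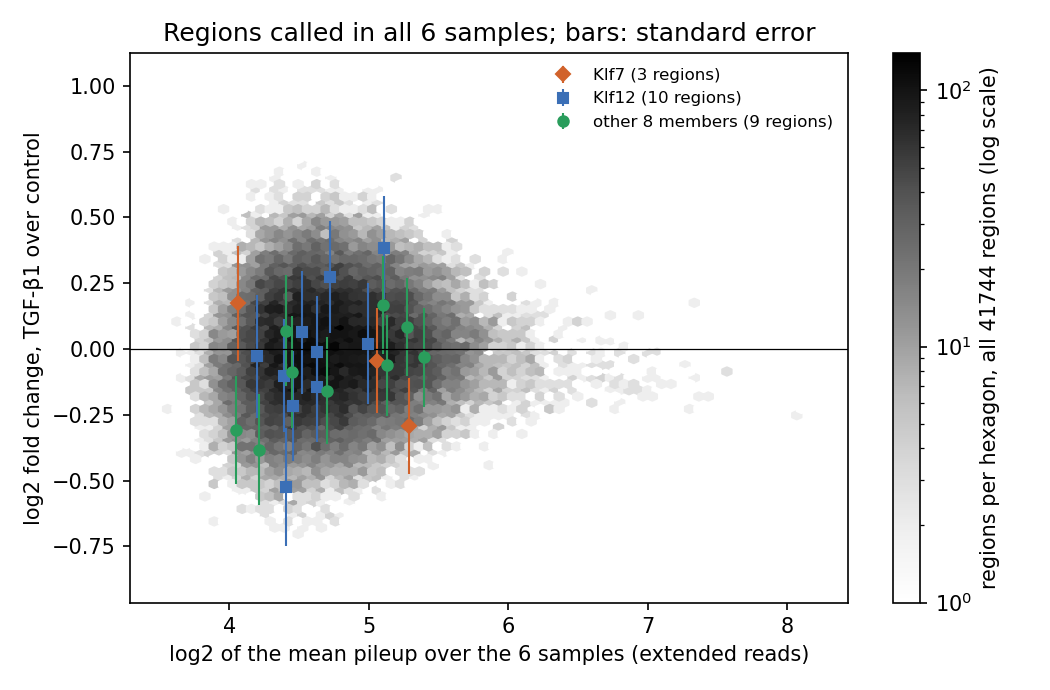
Log2 fold change of summit pileup (TGF-β1 over control, centred on each sample's median) against log2 of the mean pileup in extended reads for the regions called in all 6 samples, with all 41744 regions as grey hexagons and the 22 member regions as coloured points with their SE. The member regions lie inside the cloud of all regions, with the 3 Klf7 regions at −0.29, −0.04 and 0.17.

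Outside the members, the 7 other Klf genes (Klf1, Klf8, Klf11, Klf14, Klf15, Klf16 and Klf17), 6 of them with a peak, had 7, 6 and 7 peaks in the control and 7, 8 and 7 in the TGF-β1 samples. The related Sp genes, which bind the same GC box, had 10, 13 and 18 peaks in the control and 13, 18 and 13 in the TGF-β1 samples over 9 genes, 8 of them with a peak. Neither list separated the groups, and no gene in either had more or fewer peaks in every TGF-β1 sample.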

How the data were processed

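MeDIP-seq peak lists of 6 samples were analysed, 3 per group by the labels. As the study's methods and the headers state, the authors mapped reads to mm9 with BWA, removed duplicates and called peaks in each sample separately with MACS2 2.1.0.20150731 with no input. In the deposited lists, pileup is an unscaled signal (coverage at the summit), fold enrichment is a ratio to local background, and significance is given as −log10 of p-values and q-values. Regions below the authors' threshold are not listed, so an absent peak does not show an absence of reads.

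Members and lists were chosen with earlier results of these data known. The text names every region of Klf7 and, in the other members, regions called in at least 2 more samples of a group, the highest region per gene, those at an unadjusted p below 0.05, and all promoter and coding exon regions. The Klf4 region 4839 bp before the start was added after its values were seen. Sequence and annotation came from NCBIM37 (mm9) and GENCODE vM1. Peaks per gene were compared by exact two-sided permutation over 20 assignments. Pileup was compared with limma 3.58.1 (lmFit and eBayes with a trend, R 4.3.3, tested on simulated data), with Benjamini-Hochberg adjustment over all regions called in the 6 samples. Joining was checked with bedtools 2.31.1, and other steps used Python 3.11.15. The samples had 9407103 to 13291419 reads each, and the precision of the comparisons is set by the spread between 3 samples per group. Alternatives were stricter thresholds, other windows, scaling by reads or peaks, other limma settings, each sample left out, and a replicate block.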

Additional observations from a re-analysis of the deposited data

How the results depend on the processing

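Of 334 recomputed values, 293 were labelled the same. With a test, this meant an unchanged direction and side of the 0.05 threshold. With no test, it meant a move within the spread between replicates (values) or by at most 1.5 times (counts). For peaks per gene, the exact tests cannot go below p = 0.1 (0.25 for sign flips), so only the direction could change. Klf5 and Klf13, with equal means, had no direction to keep and were labelled the same in every setting. The difference in Klf7 peaks stayed positive throughout, 3 at a stricter q (−log10 q of 5 or more, exact permutation p = 0.1), 2.33 at a fold enrichment of at least 5 (exact permutation p = 0.1), 2 to 3.50 with each sample left out, 1.91 scaled by peaks and 1.35 scaled by reads. Scaled by reads to the mean depth, the family difference was −3.46 peaks, that in introns −2.58, in flanks −1.11 and in untranslated exons 0.0125, Klf2 turned to −0.153 and Klf12 to −3.05, and 1 member (Klf6) was lower in every TGF-β1 sample, against 14.7% of genes. Scaled by the number of peaks, the family differed by 1.10, introns by 0.405 and Klf12 by −1.13. At a fold enrichment of at least 5, the family differed by 1 peak, introns by 2, flanks by −2.33 and Klf10 by −0.333. At that setting 0 of 66 member regions were called in all 3 TGF-β1 samples and no control sample, against 0.794% of all regions. Members with more peaks in every TGF-β1 sample numbered 1 at the stricter q (Klf7, against 3.78% of genes), 1 at the higher fold enrichment (Klf7, against 2.32%) and 1 within gene bodies (Klf12, against 3.9%).

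With each sample left out, that number was 0 to 2 against 5.79% to 11% of genes, with 2 (Klf4 and Klf7) without control replicate 3, where the share was 11%, and 1 without control replicate 1 (Klf12) or TGF-β1 replicate 2 (Klf3) or 3 (Klf7). The family difference was 5 to 9. Regions called in every remaining TGF-β1 sample and no remaining control sample numbered 1 to 3 against 1.84% to 2.67% of all regions, with 2 of 71 without TGF-β1 replicate 1, 3 of 73 without replicate 2 and 3 of 67 without replicate 3. The opposite pattern numbered 1 to 2 against 0.502% to 1.14%, with 2 of 67 without TGF-β1 replicate 3. Differences by element ran from 0.667 to 2.17 in coding exons, 3 to 5.50 in introns, −0.667 to 1.33 in flanks and −0.333 to 0.333 in promoters. Member regions at an unadjusted p below 0.05 by limma numbered 0 to 2 of 22 against 3.19% to 5.93% of all regions, with 0 without control replicate 3 or TGF-β1 replicate 3. They numbered 2 of 22 with pileup per 1000000 reads (6.23% of all regions), 4 of 22 with fold enrichment (4.41%) and 2 of 51 in the fit of regions called in at least 3 samples (4.16%). Those 2, the Klf7 intron 1 and Klf12 intron 4 regions, entered through the calls of 1 group with the other set to the lowest pileup of each list, which fixes their direction. With fold enrichment, 1 of all regions, not a member's, passed an adjusted p of 0.05 by limma. The Klf7 intron 2 region at 53.7 kb ranged from −0.16 to 0.12 in log2 fold change and was positive without control replicate 1 (0.12) or TGF-β1 replicate 1 (0.08), and that at 47.3 kb ranged from −0.027, without control replicate 3, to 0.30. The Klf7 intron 3 region ranged from −0.38 to −0.14 with each sample left out, and the smallest change was without TGF-β1 replicate 2. The causes of these changes were not tested. Pileup per 1000000 reads shifted the median log2 fold change of all regions to −0.10, and that of the members to −0.13.

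Whether same-numbered samples came from the same culture is not stated in the labels. Their deviations from the group means correlated at −0.0464, 0.0432 and −0.130, and the main comparisons did not pair them. With the replicate number as a block, the Klf7 difference was again 2.67 peaks (exact sign-flip p = 0.5, where 0.25 is the smallest possible). By limma with that block, 1 of 22 member regions had an unadjusted p below 0.05, against 1533 of all 41744 regions. An uncalled sample gives no pileup, so heights under the lowest called pileup of 8 to 10 extended reads are unknown in these lists.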
